A study of Mus musculus with 6 samples.

Results

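The genes described here are the odorant receptor genes of mouse chromosome 11 that surround Olfr43, the mouse orthologue of the human receptor OR1A1. They were taken by symbol: every row of the count table named Olfr376 to Olfr412, with or without a pseudogene suffix, plus Olfr43. This gave 37 of the 53686 rows of the table and 37 of its 1404 receptor rows. They lie between 73371246 and 74366218 on chromosome 11 (GRCm38), 24 of them intact and 13 pseudogenes by name or annotation. The RNA was that of the main olfactory epithelium, dissected from C57BL/6J mice, in 3 wild-type libraries and 3 libraries from mice hemizygous for the 5x21-OR1A1 transgene. The labels give neither the animals behind each library nor their age or sex, and no construct map, so a p-value here reflects only how these libraries vary. As background, 5x21 is known as a short enhancer element repeated in tandem in front of a receptor minigene. The table has no row for the transgene, and OR1A1 itself is not analysed here.

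An odorant receptor is a G protein-coupled receptor in the cilia of olfactory sensory neurons. Each mature neuron transcribes a single receptor gene from a single allele, and the protein it makes feeds back to keep the other receptor genes silent. The level of a receptor in whole epithelium therefore follows both the number of neurons that chose it and the RNA per neuron, which bulk counts cannot tell apart. The genes of this cluster are class II receptors, the class that arose with land vertebrates, and OR1A1 is known for responses to terpenoid odorants such as carvone and citronellal. By RefSeq's names the cluster holds 20 members of the MOR135 family, 6 of MOR255, 5 of MOR125 (with Olfr43 and Olfr403), 3 of MOR133 and 1 each of MOR157 and MOR127, and 1 member had no family name.

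Olfr43 had a near copy in the cluster. Its gene spans 74205664 to 74211379 on the minus strand and that of Olfr403 spans 74186249 to 74198612 on the plus strand, with gene starts 25.1 kb apart. Their coding sequences, 939 bases each without the stop codon, were 98.72% identical. They differed at 12 positions, counted from 1 at the A of the start codon and written with the base of Olfr43 first: C15T, C29T, G316T, G317C, C318A, C323G, T327C, A387G, C496T, C651T, C917A and C930T. The stretch below, coding bases 208 to 387 in the GENCODE transcripts, is shown because it holds 6 of the 12 differences and shows how few letters separate the orthologue from its copy. Capitals mark the bases that differ.
Olfr43: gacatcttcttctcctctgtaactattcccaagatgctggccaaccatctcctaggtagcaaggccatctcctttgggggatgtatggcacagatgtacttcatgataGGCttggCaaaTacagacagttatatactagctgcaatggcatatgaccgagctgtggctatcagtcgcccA
Olfr403: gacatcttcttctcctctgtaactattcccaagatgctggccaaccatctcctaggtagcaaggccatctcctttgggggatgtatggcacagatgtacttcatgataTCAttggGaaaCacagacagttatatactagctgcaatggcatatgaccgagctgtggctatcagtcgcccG
The longest run without a difference was 286 bases, from base 30 to base 315, so a read of 100 bases within it names neither gene. Of all 100-base stretches of the annotated Olfr43 transcripts, 18.96% also occurred in Olfr403 or Olfr408-ps1, and 11.81% of those of Olfr403 occurred in Olfr43 or Olfr408-ps1. Single values of Olfr43 and Olfr403 are uncertain for that reason.

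Library totals ran from 27506217 to 35804712 counts. Summed over the 37 genes, counts came to 2216, 3413 and 2600 for wild-type and to 1812, 1541 and 1294 for 5x21-OR1A1. As CPM, the usual depth-scaled count with TMM-scaled totals as the library size, these sums were 70.4, 93.7 and 89.9 for wild-type and 49.4, 52.9 and 47.7 for 5x21-OR1A1. The 2 groups were apart, 5x21-OR1A1 below wild-type, with a log2 ratio of -0.75 (SE 0.14, n = 3 each). The sum of the 945 other class II genes was lower by a like amount, with a log2 ratio of -0.66 (SE 0.15). Per 100 counts of those other genes, the cluster took 2.70, 2.61 and 2.73 counts for wild-type and 2.41, 2.59 and 2.56 for 5x21-OR1A1, a log2 ratio of -0.09 (SE 0.04). The 5x21-OR1A1 values were again the lower ones without overlap, but this difference was small beside that of the plain sum. Summed markers of mature olfactory sensory neurons, 14 of 14 present in the table, were lower in the same libraries, at 14060 to 15460 CPM against 20050 to 26710 CPM. Their part in the lower receptor counts was not tested. With library sizes set to those markers, the log2 ratio of the cluster's sum was -0.07, and with library sizes set to the other class II genes it was -0.09.

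**Figure D1:**
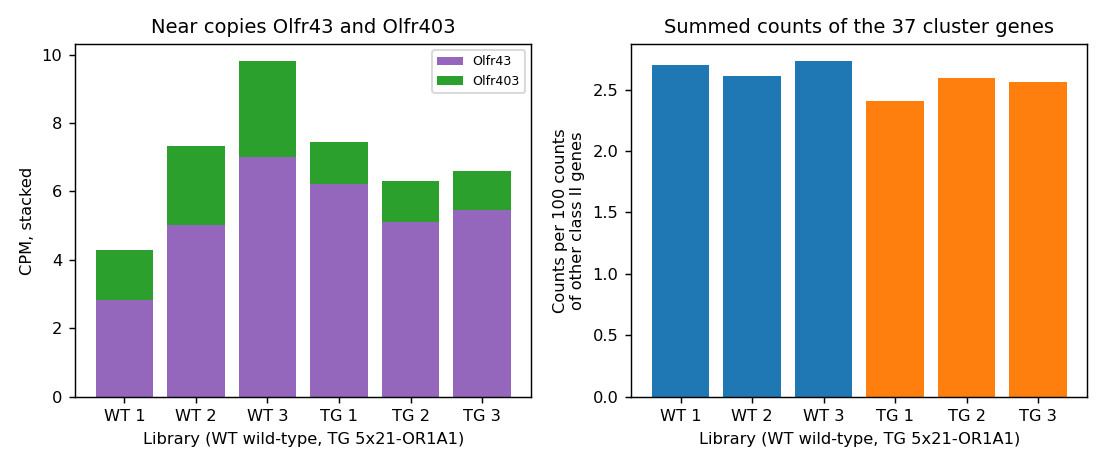
The left panel stacks the CPM of Olfr43 and Olfr403 in each of 6 libraries, and the right panel gives summed counts of the 37 cluster genes per 100 counts of the 945 other class II genes, both with axes from 0. Olfr403 makes up a smaller share of the pair in the 5x21-OR1A1 libraries (16.5 to 19%) than in the wild-type ones (28.5 to 34.1%), while the right-hand bars lie between 2.41 and 2.73.

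Single genes of the cluster differed among themselves. Of the 37 members, 23 passed the filter on low counts and were tested, 21 intact genes and 2 pseudogenes. Of these, 6 were called lower in 5x21-OR1A1 tissue (edgeR, adjusted p under 0.05 over all genes; 2.2% of the 19267 tested genes were called lower) and 0 higher (0.519% of all genes; 2.71% were called in either direction). DESeq2 called 7 members lower and 0 higher, beside 902 and 313 over all genes, and limma-voom 5 and 0, beside 398 and 105. At an unadjusted edgeR p under 0.05, 11 tested members were lower (9.61% of all genes and 46.8% of the other class II genes). At that threshold 0 were higher (7.48% and 10.1%). Among the other class II genes 162 of 746 were called lower (21.7%) and 16 higher (2.14%), so the 6 of 23 (26.1%) were near the share of their class. Those 746 genes are all intact, and of the 21 intact members 5 were called lower (23.8%). The median log2 fold change of the tested members was -0.44, beside -0.64 for the other class II genes tested and 0.02 for all genes. The values ran from -2.53 to 0.84, with 16 below 0 and 7 above. In 11 of the 23 genes all 5x21-OR1A1 libraries lay below all wild-type libraries, against 12.5% of all genes and 42.8% of the other class II genes. Among the 21 intact members this held for 10. No tested member had the groups apart in the other direction (11.4% of all genes). Leaving out 1 library gave 8, 4 and 6 lower members for wild-type libraries 1, 2 and 3, and 4, 3 and 3 for 5x21-OR1A1 libraries 1, 2 and 3. Over all genes the lower calls in these runs were 472, 262 and 369, and 136, 152 and 136. With all libraries they were 423. The median turned to 0.0094 with no filter on low counts, which adds 10 members with few counts.

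**Figure D2:**
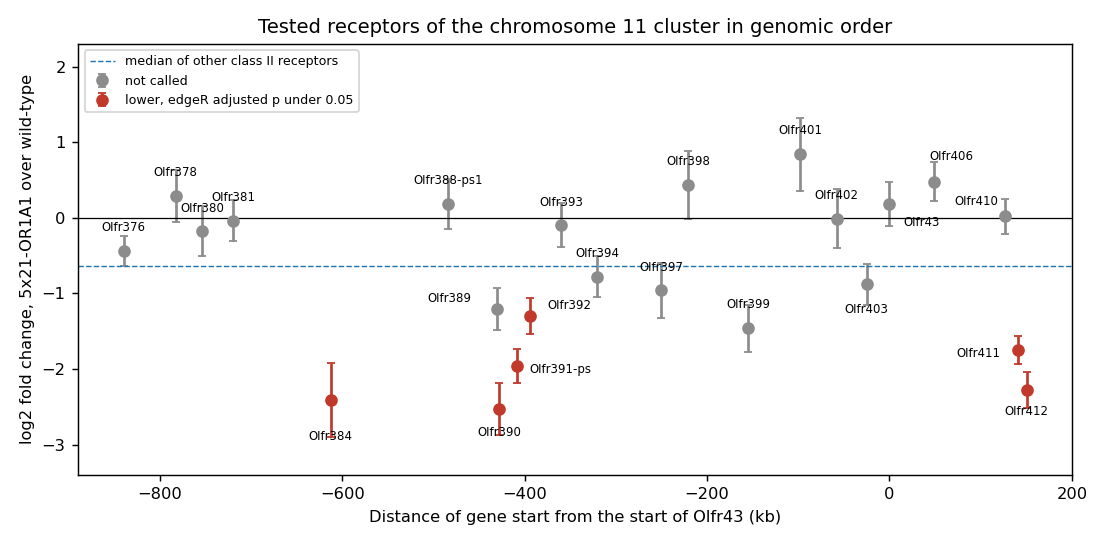
Each point is a tested receptor of the cluster, placed by the distance of its gene start from that of Olfr43 in kb, with its edgeR log2 fold change (5x21-OR1A1 over wild-type) and SE. The 6 red points were called lower, between -1.30 and -2.53; the dashed line at -0.64 is the median of the other class II genes, and points lie on both sides of it.

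Olfr43, the orthologue of OR1A1, stood at 2.83, 5.03 and 7.02 CPM for wild-type and 6.21, 5.11 and 5.45 CPM for 5x21-OR1A1. The wild-type values spanned the 5x21-OR1A1 ones, so the groups overlap. Its log2 fold change was 0.18 (SE 0.29, edgeR adjusted p = 0.813), and it was -0.10 without wild-type library 1. Scaled to the other class II genes, which moves the median of all genes from 0.02 to 0.67, the value was 0.87 (edgeR adjusted p = 0.0162).

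Olfr403, its near copy, was at 1.46, 2.31 and 2.80 CPM for wild-type and 1.23, 1.20 and 1.14 CPM for 5x21-OR1A1. All 5x21-OR1A1 values lay below all wild-type values, and the change did not pass, with a log2 fold change of -0.88 (SE 0.27, edgeR adjusted p = 0.158). It passed without wild-type library 1 (-1.10, edgeR adjusted p = 0.0471). Within the pair the ratio of Olfr43 to Olfr403 counts was 1.93, 2.18 and 2.51 for wild-type and 5.07, 4.26 and 4.77 for 5x21-OR1A1. The ratio, which was not planned, was higher in 3 of 3 5x21-OR1A1 libraries, by 1.10 on the log2 scale (SE 0.13). A two-sided exact permutation test gave p = 0.1, the smallest that 3 against 3 allows. It could not pass 0.05 and so decides nothing. Summed, which joins the reads that the 2 genes can share, the pair was at 4.29, 7.33 and 9.82 CPM for wild-type and 7.44, 6.31 and 6.59 CPM for 5x21-OR1A1, and the groups overlap. Reads of the human transgene that might match either gene were not tested for. The other 3 MOR125 members are pseudogenes with at most 1 count in any library.

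The members with the most counts lay near the ends of the cluster. Olfr411, an MOR255 gene at 74345129 to 74352650 on the minus strand, was at 18.2, 21.4 and 13.9 CPM for wild-type and 4.72, 6.00 and 5.23 CPM for 5x21-OR1A1. It fell by 1.75 on the log2 scale (SE 0.18, edgeR adjusted p = 0.00381), with the groups far apart. Its share of all cluster counts was 25.9, 22.9 and 15.5% for wild-type and 9.55, 11.4 and 11% for 5x21-OR1A1. Olfr376, the first member at 73371246 to 73377836 on the plus strand, was at 9.24, 14.5 and 8.99 CPM for wild-type and 7.06, 8.78 and 8.29 CPM for 5x21-OR1A1. The groups did not overlap, though only narrowly, and the log2 fold change of -0.44 (SE 0.20) did not pass (edgeR adjusted p = 0.320). Relative to the other class II genes its value was 0.24.

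Olfr412, the last member and the one MOR127 gene, lies at 74362069 to 74366218 on the plus strand, next to Olfr411. It was at 4.19, 4.64 and 4.60 CPM for wild-type and 0.981, 1.13 and 0.626 CPM for 5x21-OR1A1. The wild-type libraries were close together and all 5x21-OR1A1 libraries far below them (log2 fold change -2.28, SE 0.24, edgeR adjusted p = 0.00396). On the other side of Olfr411, at 14.6 kb between gene starts, the MOR255 gene Olfr410 had a value of 0.02 (SE 0.23, edgeR adjusted p = 0.983). It was at 4.15 to 7.22 CPM for wild-type and 4.80 to 5.78 CPM for 5x21-OR1A1. Olfr411 had 4.18, 2.97 and 3.35 counts per count of Olfr410 for wild-type and 0.983, 1.11 and 0.904 for 5x21-OR1A1, a pair picked after its values were seen. In coding sequence Olfr411 and Olfr410 were 84.0% identical, while Olfr412 was at most 68.3% identical to any of the members aligned, those with an annotated coding sequence.

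A run of neighbours, MOR135 genes but for Olfr391-ps, which has no family name, held further called falls. Olfr390, at 73782964 to 73790446 on the plus strand, was at 4.26, 3.62 and 7.85 CPM for wild-type and 1.09, 0.721 and 0.884 CPM for 5x21-OR1A1. It had the largest fall of the cluster (log2 fold change -2.53, SE 0.34, edgeR adjusted p = 0.00989). Olfr391-ps, at 73797861 to 73803052 on the minus strand, carries a pseudogene name and is annotated as protein-coding in GENCODE. It was at 3.11, 3.95 and 4.64 CPM for wild-type and 0.981, 1.03 and 0.994 CPM for 5x21-OR1A1, which were nearly equal among themselves (log2 fold change -1.96, SE 0.22, edgeR adjusted p = 0.00435). Olfr392, at 73811740 to 73817049 on the minus strand, was at 4.73, 5.03 and 7.68 CPM for wild-type and 2.24, 2.78 and 2.03 CPM for 5x21-OR1A1 (log2 fold change -1.30, SE 0.24, edgeR adjusted p = 0.0303). Its groups were apart by less than those of the 2 genes before it. Calls for Olfr391-ps, Olfr411 and Olfr412 held in every alternative run. Olfr390 lost its call without 5x21-OR1A1 library 2 or 3 (edgeR adjusted p = 0.0548 and 0.0598), and Olfr392 lost it without wild-type library 2 (0.0520) and without 5x21-OR1A1 libraries 1, 2 and 3 (0.133, 0.0794 and 0.143).

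Olfr384, an MOR135 gene further from Olfr43 at 73598594 to 73605092 on the plus strand, was called on few counts. It had 12, 36 and 16 counts for wild-type and 4, 3 and 4 for 5x21-OR1A1, or 0.381, 0.989 and 0.553 against 0.109, 0.103 and 0.147 CPM. The groups did not overlap and the log2 fold change was -2.41 (SE 0.49, edgeR adjusted p = 0.0448). The call was lost with limma-voom (0.0631) and without wild-type library 2 or 3 (0.124 and 0.0859). It was also lost without 5x21-OR1A1 library 1, 2 or 3 (0.191, 0.190 and 0.156).

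**Figure D3:**
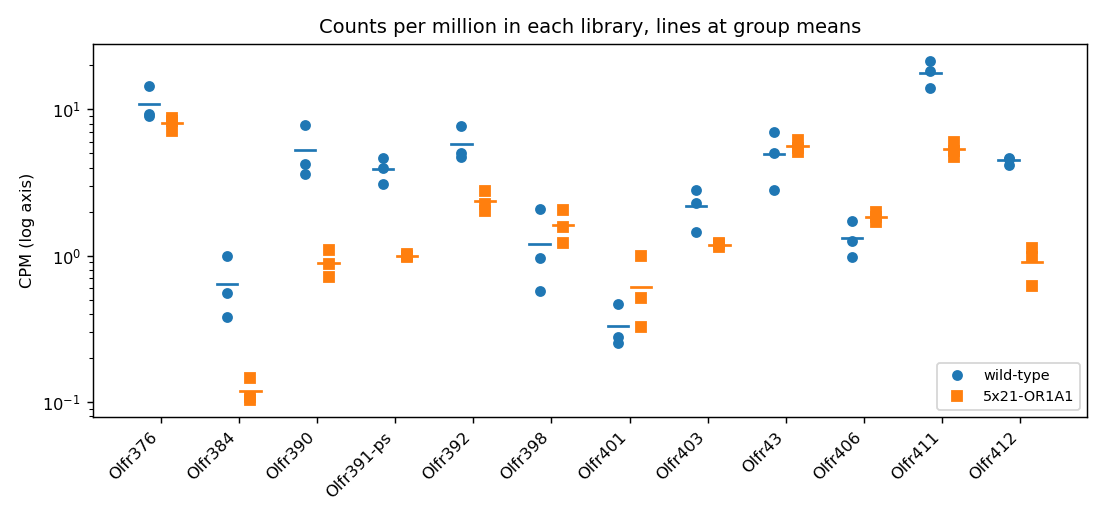
CPM of 12 cluster genes in each of the 3 wild-type (circles) and 3 5x21-OR1A1 libraries (squares), on a log axis, in genomic order, with short lines at group means. The 6 genes called lower have all squares below all circles, as have Olfr376 and Olfr403, while Olfr43, Olfr398, Olfr401 and Olfr406 overlap.

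The 7 tested members from Olfr389 to Olfr397, 1 stretch of the cluster chosen after the values were seen, all had values below 0, with a median of -1.21 and 3 called. Olfr389 (-1.21, edgeR adjusted p = 0.0746), Olfr394 (-0.78, 0.199) and Olfr397 (-0.96, 0.225) did not pass, and Olfr393 stood at -0.10 (0.894). Olfr392 had 2.37, 1.49 and 1.76 counts per count of Olfr393 for wild-type and 0.719, 0.810 and 0.809 for 5x21-OR1A1, again picked after the values were seen. The 6 tested members before that stretch, Olfr376 to Olfr388-ps1, had a median of -0.11 with 1 called. The 10 from Olfr398 to Olfr412 had a median of 0.00 with 2 called, 5 below 0 and 5 above. By family, 3 of 12 tested MOR135 genes and 1 of 5 tested MOR255 genes were called lower. For comparison, 21.7% of the other class II genes and 2.2% of all genes were called lower. Whether any family or stretch differed from the share of its class was not tested. In the MOR255 family Olfr399 was at 2.64, 3.57 and 2.04 CPM for wild-type and 0.981, 1.30 and 0.700 CPM for 5x21-OR1A1. Its value of -1.46 stood just short of the threshold (edgeR adjusted p = 0.0516), and DESeq2 called it and Olfr389 lower. Its annotated span lies partly within that of Olfr139, a receptor on the same strand. No 100-base stretch of their annotated transcripts was shared, and shorter overlaps of their exons were not checked.

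The 3 highest values among the 23 tested members belonged to Olfr401, Olfr406 and Olfr398, and none passed. These genes had 88, 297 and 267 counts over all libraries, in this order. Olfr401, of the MOR255 family, was at 0.254, 0.467 and 0.277 CPM for wild-type and 0.327, 0.995 and 0.516 CPM for 5x21-OR1A1 (log2 fold change 0.84, SE 0.48, edgeR adjusted p = 0.430). Olfr406, of the MOR133 family, was at 0.984, 1.26 and 1.73 CPM for wild-type and 1.69, 1.85 and 1.99 CPM for 5x21-OR1A1 (0.48, SE 0.26, edgeR adjusted p = 0.394). Olfr398, the MOR157 gene, was at 0.572, 0.961 and 2.08 CPM for wild-type and 2.04, 1.58 and 1.22 CPM for 5x21-OR1A1 (0.44, SE 0.45, edgeR adjusted p = 0.678). In each of these genes the highest wild-type library lay above the lowest 5x21-OR1A1 one. Of the 100-base stretches of Olfr406, 7.04% also occurred in Olfr409-ps1 or Olfr59. Its annotated span overlaps that of Olfr405-ps1 on the other strand, but no 100-base stretch of the annotated transcripts of Olfr405-ps1 occurred in another gene. Shorter overlaps of their exons were not checked.

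Scaled to the other class II genes instead of library totals, 7 members were called lower (1.32% of all genes) and 6 higher (69.5% of all genes). Of the 746 other class II genes, 19.3% were called lower and 23.5% higher on this scale, which is centred on them. The 7 were the 6 genes called above and Olfr399, from -0.65 for Olfr392 to -1.88 for Olfr390. The 6 were Olfr43, Olfr378, Olfr398, Olfr401, Olfr406 and Olfr410, from 0.71 for Olfr410 to 1.52 for Olfr401. This scaling shifts the median of all genes to 0.67, and the members' own median to 0.24. Scaled to mature neuron markers the counts were 7 lower (1.33% of all genes) and 7 higher (74.3%), with Olfr388-ps1 added.

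The 14 members left untested were 11 pseudogenes and 3 intact genes, Olfr382, Olfr385 and Olfr395, with at most 44 counts over all libraries. Of these, 4 pseudogenes had 0 counts in every library. Between 29 and 30 of the 37 members had a count in each wild-type library, and 32 in each 5x21-OR1A1 library. In CPM, 4 of the 10 untested members with a count had 5x21-OR1A1 above wild-type in all libraries (3.79% of the 12146 rows with a count that the filter removed, which include rows with 1 count), and 0 had the reverse (2.63%). Olfr395 had 4, 4 and 3 counts for wild-type and 12, 8 and 8 for 5x21-OR1A1, and Olfr385 had 2, 2 and 2 against 13, 6 and 3. Olfr396-ps1 had 5, 7 and 3 against 9, 7 and 13, and Olfr404-ps1 had 0, 2 and 0 against 6, 3 and 5. The tie at 7 counts in Olfr396-ps1 is 0.192 against 0.240 CPM, since the library sizes differ. Fitted without a filter, none of them passed (edgeR adjusted p = 0.276, 0.262, 0.499 and 0.255 in this order).

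Per kb of annotated exon, wild-type levels of the tested members ran from 6.79 ± 1.43 CPM per kb for Olfr411 to 0.149 ± 0.0525 for Olfr401 (SD, n = 3). Olfr376 followed Olfr411 at 3.26 ± 0.930, then Olfr412 at 2.51 ± 0.139, Olfr43 at 2.25 ± 0.952 and Olfr391-ps at 1.88 ± 0.367. From Olfr376 to Olfr391-ps, neighbours in this order differed by less than the larger of their SDs, while Olfr411 was above Olfr376 by more. In 5x21-OR1A1 libraries the order was Olfr43 at 2.54 ± 0.256, Olfr376 at 2.41 ± 0.266 and Olfr411 at 2.02 ± 0.247 CPM per kb, where Olfr43 and Olfr376 differed by less than their SDs. Olfr412 dropped to place 10 and Olfr390 from place 9 to place 20 of 23. Across the 23 members the wild-type level and the log2 fold change had a Pearson r of -0.49 and a Spearman rho of -0.54. With the mean level over all 6 libraries in place of the wild-type level, r was -0.27 and rho -0.36. These are descriptions across genes that share libraries, and the first shares its wild-type values between both axes.

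**Figure D4:**
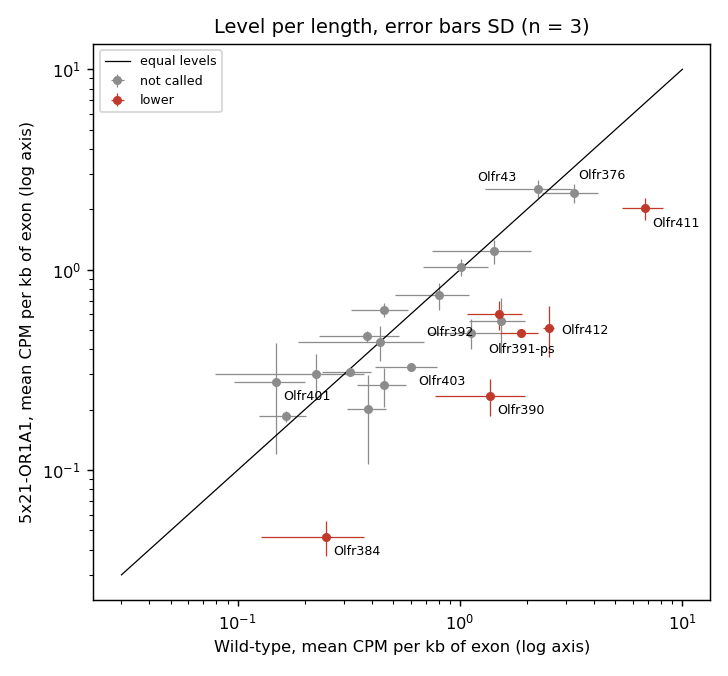
Mean CPM per kb of exon of the 23 tested cluster genes in 5x21-OR1A1 against wild-type libraries, both axes on a log scale, with SD over 3 libraries and the line of equal levels. The 6 genes called lower (red) lie below the line, and the line passes through the wild-type error bar of Olfr43.

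RefSeq promoter windows, from 250 bases before to 50 after the annotated start, were found for 20 of the 37 members. In 17 of these the RefSeq start was within 75 bases of the coding start, so the window is not a true promoter where the first exon lies upstream. The other 3 windows, of Olfr378, Olfr389 and Olfr392, start at an upstream exon. They are shown, from the 5′ end of the window to the base before the first GENCODE start, because they are the only windows of the 37 members before a noncoding first exon. Capitals mark TAATGA or TAATTA, the letters searched on both strands for homeodomain factors such as Lhx2.
Olfr378, chr11:73428478-73428727, minus strand: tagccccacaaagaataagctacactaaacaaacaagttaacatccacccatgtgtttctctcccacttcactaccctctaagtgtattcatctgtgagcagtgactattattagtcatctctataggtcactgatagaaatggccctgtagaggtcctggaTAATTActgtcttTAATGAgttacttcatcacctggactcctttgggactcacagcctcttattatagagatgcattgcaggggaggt
Olfr389, chr11:73780714-73780839, minus strand: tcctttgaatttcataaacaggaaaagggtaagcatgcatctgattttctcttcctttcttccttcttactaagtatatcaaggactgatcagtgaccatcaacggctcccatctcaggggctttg
Olfr392, chr11:73817050-73817127, minus strand: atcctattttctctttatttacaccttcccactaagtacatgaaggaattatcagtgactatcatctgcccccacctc
Olfr378, with a log2 fold change of 0.29 (edgeR adjusted p = 0.724), held both sequences, and the shorter stretches of Olfr389 and Olfr392 held neither. The whole windows of both held TAATGA closer to or past the RefSeq start, outside the stretch shown. Over the whole windows TAATGA was in 12 of 20 member windows (60.0%), 28.8% of 947 receptor windows and 9.78% of all windows, and 11 of the 12 were among 12 MOR135 windows. MOR135 genes are related in sequence, so these windows are not independent. TAATTA was in 4 of 20 member windows, 18.6% of receptor windows and 5.29% of all. TATAAA, the letters of the TATA box, was in 8 of 20 member windows, 41.1% of receptor windows and 13.6% of all. The windows of Olfr378, Olfr389 and Olfr392 did not hold it, so every member match was in a window near the coding start. CCCNNGGG, searched for Ebf factors, was in 1 of 20 member windows, 3.06% of receptor windows and 13.7% of all.

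Another 6 receptor rows that the symbol rule leaves out lie between the first and the last member, and those named here were picked after their values were seen. Of the 5 tested, Olfr1 (-1.56, edgeR adjusted p = 0.0136), Olfr23 (-2.09, 0.0266) and Olfr139 (-1.66, 0.00482) were called lower. The pseudogene Olfr75-ps1 rose, from 1.46, 1.57 and 2.28 to 5.70, 4.49 and 6.78 CPM, with no overlap (1.68 on the log2 scale, SE 0.24, edgeR adjusted p = 0.0122). It lies between Olfr1 and Olfr378 and was the one receptor row of the span called higher. Olfr20, just outside Olfr376, had 2, 2 and 0 counts for wild-type and 4, 3 and 2 for 5x21-OR1A1 and was not tested. By number, the neighbours lie on other chromosomes. Olfr375-ps1 had 0 counts in all libraries. Olfr374 was at 4.26, 4.50 and 6.92 CPM for wild-type and 3.76, 4.43 and 2.58 CPM for 5x21-OR1A1 (-0.54, edgeR adjusted p = 0.348), and Olfr414 at 0.794, 0.741 and 2.53 against 2.26, 2.20 and 1.33 CPM (0.53, 0.640), both with overlap. Of 42 tested receptor rows elsewhere on chromosome 11, 5 were called lower (11.9%) and 1 higher, with a median of -0.32.

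Genes around the cluster that encode no receptor showed smaller values. Of the 10 protein-coding genes on each side and 2 inside the span, 17 were tested, with a median of -0.05. The only one called, named after its value was seen, was Ccdc92b, beyond Olfr412, at 42.1 ± 7.01 CPM for wild-type and 23.1 ± 1.79 CPM for 5x21-OR1A1 (SD, n = 3; log2 fold change -0.86, edgeR adjusted p = 0.0141). Of 32 genes for receptor choice, trafficking and transduction, 19 had values below 0 and 13 above, with a median of -0.17. The 2 groups were apart in 14 of them downward and in 5 upward (12.5% and 11.4% of all genes). Of the 32, 5 were called lower and 0 higher (2.2% and 0.519% of all genes). They were Ebf4, a transcription factor gene (-0.74, edgeR adjusted p = 0.0162), Ric8b, a G protein exchange factor (-0.74, 0.0285), Gng13, a G protein subunit (-0.81, 0.0292), Omp, the olfactory marker protein (-0.76, 0.0305), and Cnga4, a channel subunit (-0.68, 0.0469). Gng13, Omp and Cnga4 are also among the mature neuron markers summed above. Of the other marker lists, 3 had groups apart in their summed level. Summed progenitor markers were at 281 to 301 CPM for wild-type and 415 to 469 CPM for 5x21-OR1A1, and immature neuron markers at 1716 to 2033 and 2231 to 2457 CPM, without overlap. Sustentacular cell markers, of which Muc2 alone of 10 was at 0 in all libraries, were at 19340 to 20920 and 17410 to 18100 CPM. The summed markers of horizontal basal cells, Bowman glands, respiratory ciliated cells, microvillous cells and ensheathing glia overlapped between the groups, with log2 ratios from -0.06 to 0.15. The part of any marker list in the receptor values was not tested.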

How the data were processed

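Poly-A RNA of dissected mouse olfactory epithelium was read in 6 libraries, 3 wild-type and 3 hemizygous for 5x21-OR1A1, as nonstranded single-end reads of 100 bp per the labels' protocols. The deposited values are raw counts per gene symbol. The submitters' processing notes list TopHat2 2.1.1, HTSeq 0.9.1 and GRCm38.p5; which annotation was counted, with which options, and how multiply aligned reads were handled is not stated there. Without strand, reads from exons that overlap on opposite strands are not separable.

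The members, gene lists and tests were chosen with earlier results of these data known. All 37 members were found once in GENCODE M21 (GRCm38), which gave coordinates and exon lengths. Class I receptors were taken by symbol number and all other intact receptors as class II. The test was edgeR's quasi-likelihood F test of genotype (edgeR 4.0.16, R 4.3.3) after TMM scaling. Genes with low counts were removed by filterByExpr (minimum count 10, total 15). The p-values of the 19267 remaining genes were adjusted by Benjamini and Hochberg's method, and an adjusted p under 0.05 was a call. The SE of a log2 fold change is its size over the square root of F. CPM is relative to TMM-scaled totals. On simulated data this test, run on 19064 genes, recovered 60% of 2-fold and 92% of 4-fold changes, and 8.96% of its calls were false. Coding identity came from global alignments of GENCODE coding sequences, in place of the protein comparison planned, since no protein table was used. Shared 100-base stretches were exact matches on either strand among all GENCODE transcripts. Promoter windows and family names are RefSeq's (GRCm38.p6).

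Described with values in every library are Olfr43, Olfr403, every member called, the 5 tested members highest per exon length in wild-type libraries, the 3 largest rises and the 3 largest falls by log2 fold change, and the receptors next to the ends of the set. Alternatives covered other scalings, DESeq2 1.42.0, limma-voom (limma 3.58.1), other filters, a stricter threshold, the replicate number as a block, other member lists and leaving out each library. A sum over Olfr43 and Olfr403 was added after seeing the data.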

Additional observations from a re-analysis of the deposited data

How the results depend on the processing

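Beside the 6 members called lower and 0 higher, 7 were higher with counts scaled to mature neuron markers and 6 with counts scaled to the other class II genes, and 1 was higher when the other receptors of the span were added. Leaving out 1 library gave 3 to 8 lower members. The median of -0.44 was 0.0094 with no filter, -0.82 with at least 1 CPM in 3 libraries, 0.26 scaled to mature neuron markers and 0.24 scaled to the other class II genes; the filters change which members are tested, and the scalings remove the fall of the counts they scale to. These 2 scalings moved the log2 ratio of the sum from -0.75 to -0.07 and -0.09, and turned Olfr376 to 0.26 and 0.24. Olfr43 ranged from -0.10 to 0.51 without 1 library and was below 0 only without wild-type library 1; the cause was not tested. DESeq2 gave no adjusted p for 2 tested members, Olfr384 and Olfr388-ps1. Over all genes 523 were called, 1215 with DESeq2, 14580 and 13647 under the 2 scalings, and 150 to 626 without 1 library.

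With the replicate number as a block 5 members were called lower and 0 higher, beside 323 and 54 over all genes. The members' median was -0.41. Olfr384 (edgeR adjusted p = 0.0862) and Olfr392 (0.0839) lost their calls and Olfr399 gained one. The deviations of same-numbered libraries from their group means had correlations of -0.36, 0.11 and -0.11. Those of differently numbered libraries ran from -0.26 to 0.35, the highest for wild-type library 1 with 5x21-OR1A1 library 3. The numbers were therefore not taken to pair the samples. Low counts limit the 14 untested members.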
